A study of Mus musculus with 4 samples.

Results

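The aryl hydrocarbon receptor (AHR) pathway was examined in LPS-stimulated mouse dendritic cells through 6 genes: the receptor Ahr, its partner Arnt, and the target genes Ahrr, Tiparp, Cyp1a1 and Cyp1b1. The genes were chosen by name, with earlier results of these data known. Each was represented by the probe set annotated with that symbol alone, and where there were several, by the one with the highest mean over the 4 arrays. All 6 were found among 22180 genes named in this way. The bone marrow-derived dendritic cells came from C57BL/6 mice and were harvested on day 7 of culture. In the sulforaphane group (2 arrays) the cells received 0.3 µM sulforaphane, an isothiocyanate of cruciferous vegetables dissolved in DMSO, for 2 h, and in the DMSO group (2 arrays) the solvent alone. Both groups then received 100 ng/ml LPS of E. coli, the bacterial ligand of TLR4, for 1 h, so no comparison with unstimulated cells was made here.

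AHR is a ligand-activated transcription factor of the bHLH-PAS family. Without a ligand it is held in the cytosol by a chaperone complex that includes HSP90 and p23. Ligands such as dioxins, plant indoles and tryptophan breakdown products release it to the nucleus, where it pairs with ARNT and binds DNA elements with the core GCGTG. Its best known targets are the CYP1 cytochrome P450 genes, and AHRR and TIPARP are targets that feed back on it: AHRR competes for ARNT, and TIPARP (PARP7) ADP-ribosylates AHR. In dendritic cells the receptor is known for its part in differentiation and in the enzymes of tryptophan breakdown.

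The DNA just before the start of the target genes shows where that core lies in Tiparp and Ahrr, the target genes among the members that were read well above the intensity filter. The windows are the 250 bases before the gene's start, read on the gene's strand from RefSeq, build GRCm38.p6. Tiparp's window is chr3:65528197-65528446 on the plus strand and that of Ahrr is chr13:74292332-74292581 on the minus strand. Capitals mark GCGTG or, for the other strand, CACGC.
Tiparp: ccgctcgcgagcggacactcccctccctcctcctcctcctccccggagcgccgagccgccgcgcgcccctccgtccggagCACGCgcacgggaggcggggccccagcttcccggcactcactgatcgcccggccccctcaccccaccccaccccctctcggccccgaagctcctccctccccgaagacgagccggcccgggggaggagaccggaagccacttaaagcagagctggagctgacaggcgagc
Ahrr: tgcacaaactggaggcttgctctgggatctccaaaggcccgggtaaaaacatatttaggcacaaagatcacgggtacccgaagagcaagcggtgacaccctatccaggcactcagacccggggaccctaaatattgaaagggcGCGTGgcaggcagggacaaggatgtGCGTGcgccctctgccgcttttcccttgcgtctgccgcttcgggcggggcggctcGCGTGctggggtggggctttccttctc
Tiparp held 1 copy of GCGTG, on the other strand and 170 to 166 bases before the start. Ahrr held 3 copies, the nearest 27 to 23 bases before the start. Cyp1a1, Cyp1b1 and Arnt held 1 copy each in their windows, and 5 of the 6 members were matched to a window. Over all 32851 windows of this length, 28.2% held at least 1 copy on either strand and 2.77% held 3 or more. The core of the antioxidant response element bound by NRF2, searched as TGACNNNGC on both strands, was found in 10.2% of windows and in that of Arnt alone among these 5, in 2 copies that did not overlap GCGTG. A match of letters is a description of the window and not a binding site.

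Expression was measured on Affymetrix arrays and is given as RMA values on a log2 scale, so that a difference of 1 is a doubling. DMSO replicate 1 stood apart from the other arrays, with an interquartile range of 3.41 against 3.61 to 3.62 in the others. A gene was tested when its mean was over 2.91, the 40th percentile of the probe set means. This kept 14652 genes, among them 5 of the 6 members, all but Cyp1a1. Of the dendritic cell markers, 8 of 9 were named by a probe set of their own and all 8 lay above the filter, with means from 4.72 for Flt3 to 11.7 for H2-Ab1. The defining markers of B cells, T cells and stroma that could be read had means of 3.59 or below. Neutrophil markers (Ly6g, S100a8, S100a9, Ngp and Ltf) had means from 8.19 to 11.2 and macrophage markers from 8.45 to 11.2. Of the mast cell genes, Cpa3 and Kit lay above the 60th percentile, Fcer1a between it and the filter, and Mcpt4 and Tpsb2 below the filter. The arrays thus held transcripts marking several myeloid cell types, and fewer cells of a type and less RNA per cell cannot be told apart.

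No member of the AHR pathway passed the test between sulforaphane and DMSO, and the member that stood farthest apart was Tiparp, which was higher after sulforaphane. By limma with Benjamini-Hochberg adjustment over all 14652 genes, 0 of the 5 tested members had an adjusted p under 0.05, and 1 of 5, Tiparp, had an unadjusted p under 0.05. Of all genes tested, 0.13% passed the adjusted threshold (9 higher and 10 lower, against 34 higher and 72 lower after a second quantile normalization and 41 higher and 102 lower after centring on the genes tested) and 13% the unadjusted one. Tiparp lay above 0, as did 54.2% of all genes, and Ahr, Ahrr, Arnt and Cyp1b1 lay below 0, as did 45.8%. The median difference of the 5 was -0.15, beside 0.018 over all genes. Groups did not overlap in 1 member that was higher (Tiparp), where 24% of all genes were higher without overlap, and in 2 tested members that were lower (Ahrr and Cyp1b1), where 19.5% of all genes were. With 5 tested members, these counts are a description. Nothing in the labels says that replicates came from separate mice or cultures, and p-values here reflect the spread among these 4 arrays only, which could be technical.

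**Figure D1:**
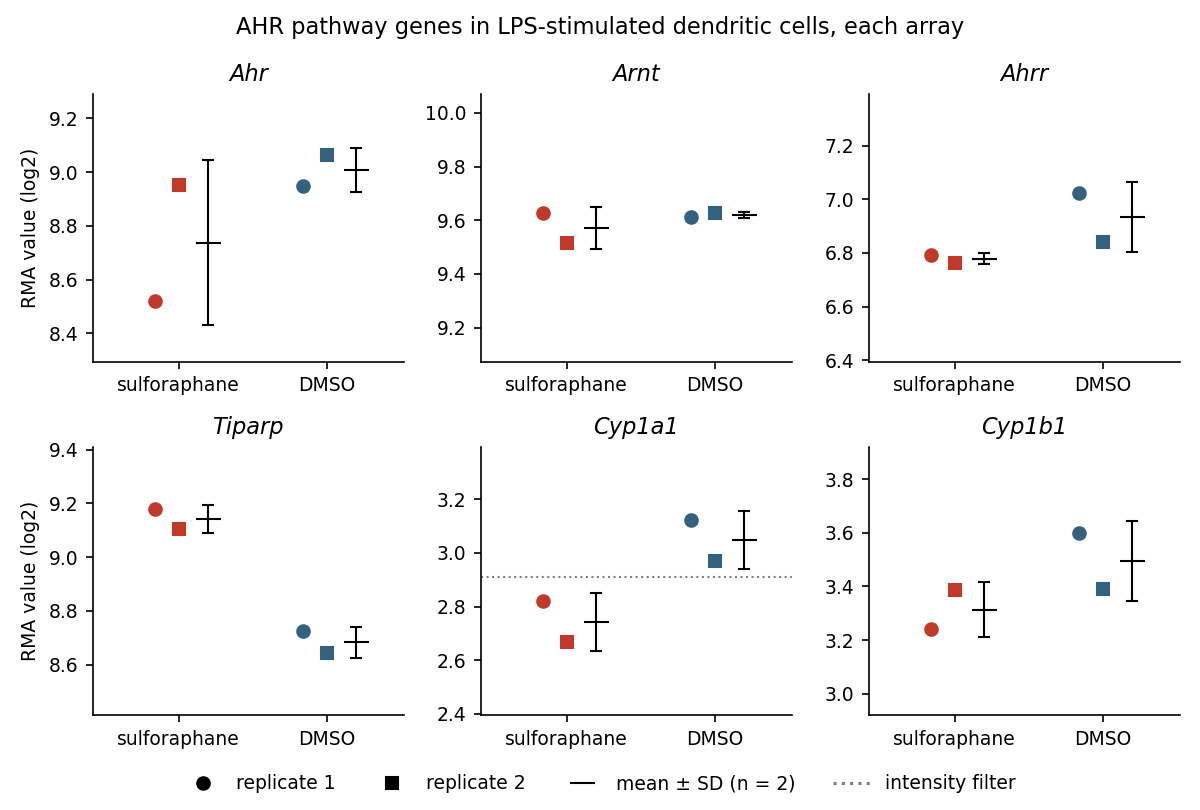
RMA values (log2) of the 6 genes on each array, with sulforaphane arrays in red, DMSO arrays in blue, circles for replicate 1, squares for replicate 2 and bars for the mean ± SD of 2 arrays; every panel spans 1 log2 unit. Both sulforaphane arrays of Tiparp (9.18 and 9.10) lie above both DMSO arrays (8.72 and 8.64), while the sulforaphane arrays of Ahr (8.52 and 8.95) lie far from each other.

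The receptor itself was lower on average after sulforaphane, but the sulforaphane arrays disagreed about it. Ahr read 8.52 and 8.95 on the sulforaphane arrays, against 8.95 and 9.07 on the DMSO arrays. Sulforaphane replicate 1 was low, and sulforaphane replicate 2 lay between the DMSO arrays, so the groups overlapped. The means were 8.74 ± 0.31 and 9.01 ± 0.082 (SD, n = 2 each), a difference of -0.27 ± 0.17 (SE) with a 95% interval from -0.68 to 0.14 (adjusted p = 0.565 by limma). Here and below, SEs and intervals are those of limma, which draws each gene's variance toward that of all genes tested. Unlike the SDs, they do not measure the spread of a gene's own arrays alone. As a ratio of sulforaphane to DMSO this interval runs from 0.626 to 1.10. Its sulforaphane arrays lay 0.43 apart, a distance reached by 4.87% of the genes tested, and its DMSO arrays 0.12 apart, reached by 60.9%. Without sulforaphane replicate 1 the difference was -0.053, and without sulforaphane replicate 2 it was -0.49. The size of the Ahr difference thus rests on 1 array.

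Arnt, the common partner of AHR and of the hypoxia-inducible factors, was nearly level. It read 9.63 and 9.52 on the sulforaphane arrays, against 9.61 and 9.63 on the DMSO arrays. The groups overlapped, and the difference of -0.048 ± 0.11 (SE) had an interval from -0.31 to 0.22 (adjusted p = 0.908 by limma). A change of Arnt by more than 0.31 in either direction lies outside that interval. The sign of the difference turned to 0.0076 without sulforaphane replicate 2.

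Tiparp, the ADP-ribosyltransferase that restrains AHR, was the member whose arrays separated most clearly. It read 9.18 and 9.10 after sulforaphane, against 8.72 and 8.64 with DMSO. The lowest sulforaphane array lay 0.38 above the highest DMSO array, while arrays of 1 group lay 0.075 and 0.082 apart, in sulforaphane and DMSO. The means of 9.14 ± 0.053 and 8.68 ± 0.058 (SD, n = 2 each) differed by 0.46 ± 0.11 (SE), a 1.37-fold higher level with a 95% interval from 1.14-fold to 1.65-fold. The unadjusted p was 0.0056 and the adjusted p 0.185 by limma, so Tiparp did not pass the threshold. It ranked 443 by unadjusted p among the 14652 genes, and 5.85% of them had a difference of this size or larger. An intensity trend in the variance estimate of limma brought its adjusted p to 0.048, and the range over the other settings was 0.107 to 0.635. A dimmer probe set of Tiparp, below the filter, differed by 0.028, and the mean of both by 0.24.

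Ahrr, the repressor of AHR that its own pathway induces, was lower on both sulforaphane arrays by a small margin. It read 6.79 and 6.76 after sulforaphane, against 7.02 and 6.84 with DMSO. The sulforaphane arrays were nearly equal, and DMSO replicate 1 was the high array. The groups were separated by 0.049, less than the 0.18 between the DMSO arrays. The difference of -0.15 ± 0.12 (SE) had an interval from -0.44 to 0.13 (adjusted p = 0.651 by limma). Without DMSO replicate 1 it was -0.063 and without DMSO replicate 2 it was -0.25.

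The CYP1 genes, which encode the monooxygenases that oxidise many AHR ligands, gave values at the low end of the arrays in both groups. Cyp1a1 read 2.82 and 2.67 after sulforaphane, against 3.12 and 2.97 with DMSO, on either side of the filter value of 2.91. Its mean of 2.90 over the arrays lay below the filter, so it was not tested. The groups did not overlap and differed by -0.30, with 0.15 between the arrays of either group. With no filter on intensity it had an unadjusted p of 0.048 and an adjusted p of 0.490 by limma. Cyp1b1 read 3.24 and 3.39 after sulforaphane, against 3.60 and 3.39 with DMSO. Replicate 2 of each group was almost the same, so that the groups were separated by only 0.0040. The difference of -0.18 ± 0.13 (SE) had an interval from -0.49 to 0.13 (adjusted p = 0.619 by limma), and was -0.077 without DMSO replicate 1 and -0.29 without DMSO replicate 2. Values this low cannot show whether the transcripts were present.

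**Figure D2:**
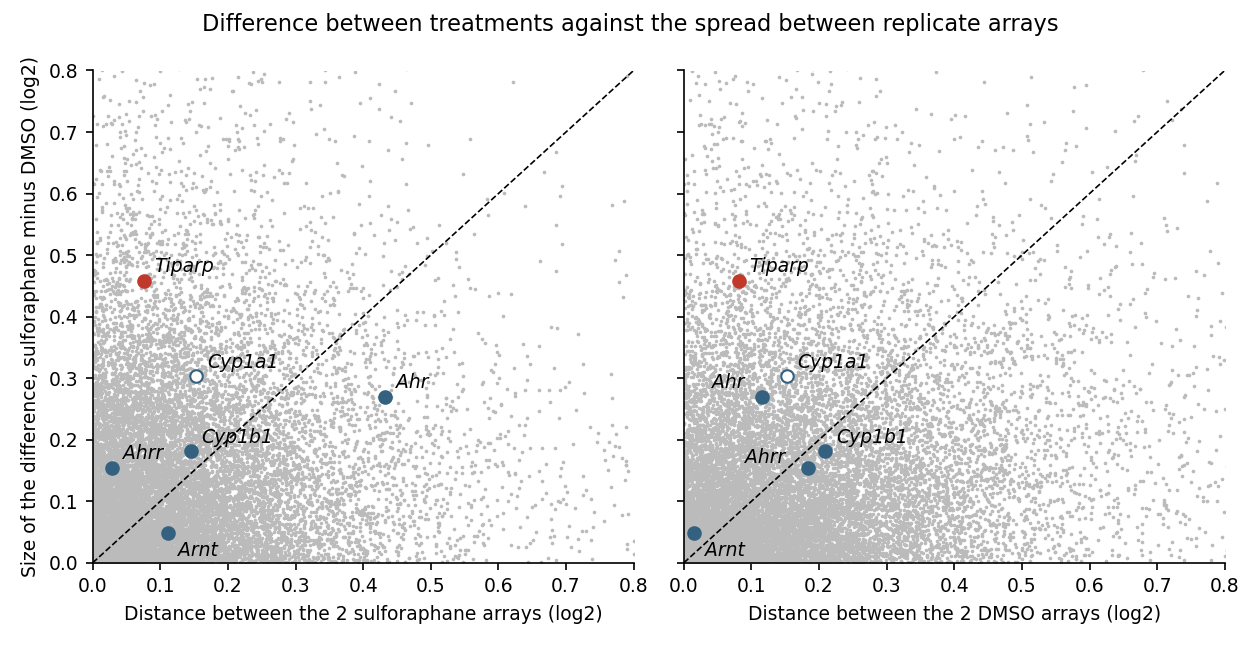
Size of the difference between treatments (log2, vertical axis) against the distance between the 2 sulforaphane arrays (left) or the 2 DMSO arrays (right), for all genes tested (grey) and the 6 members (red, higher after sulforaphane; blue, lower; open, below the filter); the dashed line marks equal values and axes end at 0.8. Tiparp lies far above the line in both panels, Ahr lies below it for the sulforaphane arrays (0.27 against 0.43), and Ahrr and Cyp1b1 lie below it for the DMSO arrays (0.15 against 0.18 and 0.18 against 0.21).

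The spread between replicate arrays was thus unlike from member to member. Between the DMSO arrays Cyp1b1 differed by 0.21 and Ahrr by 0.18, beside a median of 0.15 over the genes tested, and in both DMSO replicate 1 was the higher. Arnt and Tiparp differed by 0.016 and 0.082 between the DMSO arrays, below that median. Between the sulforaphane arrays the median over all genes was 0.12, and Ahr, at 0.43, lay well beyond it. Of 5 macrophage markers 0 passed, and all 5 lay below 0 (45.8% of all genes did) with a median of -0.12. Of these, 3 were lower without overlap (19.5% of all genes were), while Cd14 and Csf1r did overlap. An unadjusted p under 0.05 by limma was found for 1 of the 5 (13% of all genes had one). The mean level of the 5 macrophage markers was 9.61 and 9.64 on the sulforaphane arrays and 9.81 and 9.81 on the DMSO arrays. Neutrophil markers averaged 10.08 and 9.93 on the sulforaphane arrays and 9.79 and 10.05 on the DMSO arrays. Of 8 dendritic cell markers 0 passed and 3 had an unadjusted p under 0.05 by limma (13% of all genes did). Without overlap, 3 were higher (Itgax, H2-Ab1 and H2-Aa), where 24% of all genes were. Lower without overlap were 3 (Flt3, Zbtb46 and Ciita), where 19.5% of all genes were. The median difference of the 8 was 0.079. The part of cell composition in the differences of the 6 genes was not tested.

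**Figure D3:**
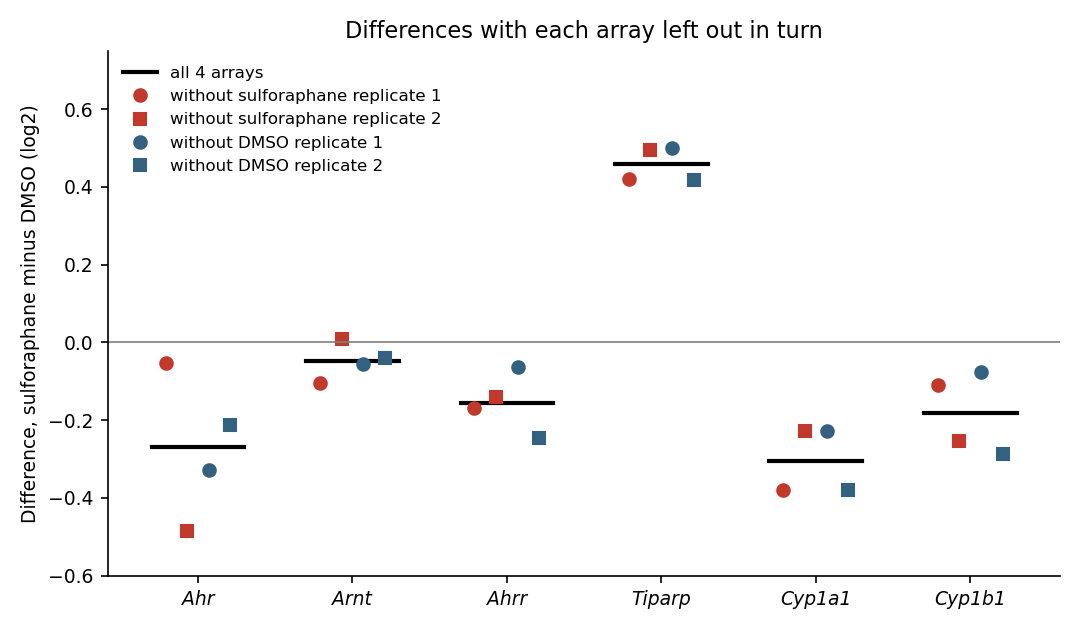
Difference between sulforaphane and DMSO (log2) of each member with all 4 arrays (black line) and with each array left out (red, a sulforaphane array left out; blue, a DMSO array; circles, replicate 1; squares, replicate 2). Tiparp stays between 0.42 and 0.50, while Ahr runs from -0.49 to -0.053 with the choice of sulforaphane array.

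Genes around the receptor were read from lists of 45 further genes, likewise chosen with earlier results of these data known. Of the 45, 37 were named by a probe set of their own and 30 were tested. Of these 30, 0 passed by limma with adjustment over all genes, 5 had an unadjusted p under 0.05 (13% of all genes did), 11 lay above 0 and 19 below (54.2% and 45.8% of all genes). The median difference was -0.082, beside 0.018 over all genes. Without overlap, 4 were higher and 9 lower, where 24% and 19.5% of all genes were. The 30 include genes with values near the filter, such as Npas1, Ptges3 and Cyp1a2.

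In the cytosolic chaperone complex, 2 of 4 genes could be tested and neither passed. Hsp90aa1, an HSP90 isoform, differed by -0.016 (interval -0.31 to 0.27) and Ptges3, which encodes p23, by -0.19 (-0.48 to 0.11) at values near the filter. Of the coactivators, 0 of 5 passed (median 0.014). The p160 coactivator Ncoa3 and the acetyltransferase Crebbp differed by 0.10 each, and Ncoa1 and Ncoa2 by -0.038 and 0.014. The intervals of these coactivators all lay between -0.32 and 0.36.

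Among 11 tested bHLH-PAS relatives of AHR and ARNT, 0 passed, 3 lay above 0 and 8 below, where 54.2% and 45.8% of all genes did. The median of -0.14 was the difference of Epas1, which read from 3.89 to 4.14. Sim1, Hif3a, Npas1, Npas2, Npas3 and Arntl2 read lower still, so these counts rest in large part on low values. Arntl (BMAL1), the ARNT-like partner of CLOCK in the circadian clock, read 7.39 and 7.31 after sulforaphane, against 6.74 and 6.92 with DMSO. The groups were separated by 0.39, and the difference was 0.52 ± 0.12 (SE), with an adjusted p of 0.174 by limma. Hif1a, a subunit of the hypoxia-inducible factor that also pairs with ARNT, read 9.53 and 9.45 after sulforaphane, against 9.71 and 9.80 with DMSO. Its difference of -0.27 ± 0.11 (SE) had an adjusted p of 0.388 by limma, and the mean of its probe sets differed by -0.067. Npas1 and Npas3 differed by -0.18 and -0.25 at values near the filter.

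Of the 3 tested genes of the AHR gene battery beyond the members, the quinone reductase Nqo1 had the largest difference. It alone read well above the filter. Nqo1, a gene with elements for both AHR and NRF2, read 9.67 and 9.69 after sulforaphane, against 8.67 and 8.90 with DMSO. Its adjusted p was 0.0597 by limma for a difference of 0.90 ± 0.12 (SE), just above the threshold, and lay between 0.0058 and 0.348 over the other settings, under the threshold in 4 of them. Cyp1a2, the liver-enriched neighbour of Cyp1a1, differed by 0.073 and the aldehyde dehydrogenase Aldh3a1 by -0.10, both at values near the filter. The other 4 genes of that list were listed only in probe sets shared with further symbols and were not read.

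Of other genes named as AHR targets, 6 of 11 were tested, 0 passed, and 5 lay below 0 (median -0.13). Serpinb2, the plasminogen activator inhibitor PAI-2, read 9.67 and 9.43 after sulforaphane, against 10.16 and 10.32 with DMSO. The groups were separated by 0.49, and the difference of -0.69 ± 0.13 (SE) had an interval from -1.02 to -0.36 and an adjusted p of 0.126 by limma. Il1b, the cytokine interleukin 1 beta, differed by -0.38 (adjusted p = 0.253 by limma), Ereg, the growth factor epiregulin, by -0.15, and Nfe2l2, which encodes NRF2, by -0.11. The tryptophan-degrading enzyme genes Ido1 and Ido2 and the cytokine genes Il10 and Il22 lay below the filter.

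Enzymes of tryptophan breakdown, which either make kynurenine and other AHR ligands or act on kynurenine, gave 3 tested genes of 7. Of these, 0 passed (median -0.094). Kmo, which hydroxylates kynurenine, read 7.43 and 7.40 after sulforaphane, against 7.93 and 7.80 with DMSO. It was lower on both sulforaphane arrays by at least 0.37, with a difference of -0.45 ± 0.11 (SE) and an adjusted p of 0.192 by limma. Kynu, the kynureninase gene, and Afmid, the formamidase gene, differed by 0.030 and -0.094. Tdo2, like Ido1 and Ido2, lay below the filter.

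**Figure D4:**
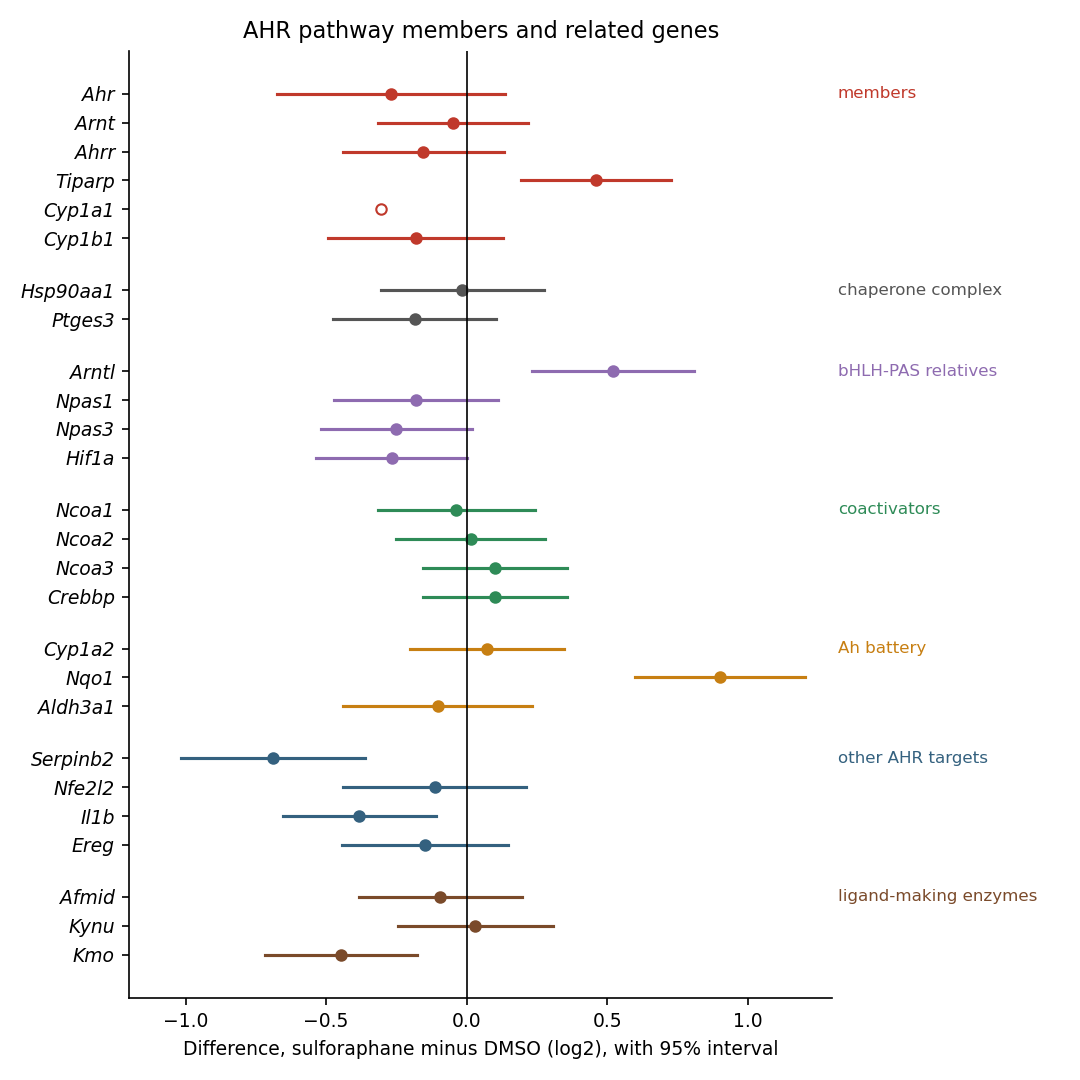
Difference between sulforaphane and DMSO (log2, horizontal axis) with its 95% interval for the 6 members and for the genes named from each list, coloured by list; the open point (Cyp1a1) was below the filter and has no interval. Among members the interval of Tiparp alone excludes 0, and among the other genes those of Arntl, Nqo1, Serpinb2, Il1b and Kmo do, while 0 of the genes shown pass the adjusted threshold.

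Genes with the profile most like each member were sought over the 4 arrays by the Euclidean distance of mean-centred log2 values. Tiparp lay nearest to Retreg3, an ER-phagy receptor (distance 0.016), Spata1 (0.026) and Bhlhe41, a bHLH repressor of the circadian clock (0.033). The whole deviation of Tiparp from its own mean had a length of 0.46 on this scale. Ahr lay nearest to Krt33b (0.035), Apoc3 (0.054) and Lad1 (0.058). Being chosen by profile, these shared its low value in sulforaphane replicate 1, and Krt33b and Apoc3 read near the filter. Ahrr lay nearest to Arglu1 (0.018), Asb8 (0.021) and Gtf2i (0.023), and Cyp1b1 to Tet3 (0.013), Wfdc5 (0.019, near the filter) and Ankrd34b (0.019). Arnt, which hardly varied, lay nearest to Scmh1 (0.012), Metap2 (0.013) and H4c12 (0.016). With 4 arrays and 14652 genes, close profiles are easily found, and the distances are a description of these arrays.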

How the data were processed

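Per the labels' protocols, biotin-labelled cRNA of the 4 samples was hybridised to Affymetrix arrays. The deposited log2 values were made by the authors using R 2.15.1 and RMA, as listed in the submitters' processing notes. The method corrects background, quantile-normalizes the arrays and summarises probe sets. The log base was read from the method and the range of values, and any filter is not given in the sources used here. Of 41345 probe sets, 23521 had 1 gene symbol in the platform annotation, 1814 had several and 16010 were not listed. By Entrez identifier 23328 matched RefSeq names (GRCm38.p6), and 0 symbols changed.

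Differences were fitted with limma 3.58.1 in R 4.3.3 (lmFit and eBayes, no replicate block, 2 residual and 4.02 prior degrees of freedom), two-sided, with a Benjamini-Hochberg threshold of 0.05. The procedure was also run on simulated arrays, whose outcome is not reported here. The number of arrays limits the precision. Members and lists were chosen with earlier results of these data known. Named were all members, up to 4 genes per list with the smallest p, and the 3 nearest profiles per tested member, passing over predicted genes. The alternatives were other filters, scalings, probe set rules and variance models, a replicate block, and each array left out.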

Additional observations from a re-analysis of the deposited data

How the results depend on the processing

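The count of members past the threshold was 0 in all settings but the intensity trend, where it was 1 (Tiparp, adjusted p = 0.048). The count of other pathway genes past it was 0 in the main fit, 1 (Nqo1) with a filter at the 60th percentile, a second quantile normalization or centring on the median of the genes tested (a setting chosen after seeing the data), and 2 (Nqo1 and Serpinb2) with the intensity trend. Over all genes, the 19 calls became 138 with the filter at the 60th percentile, 106 with the second quantile normalization, 34 with the mean of probe sets, 143 with centring on the genes tested and 249 with the intensity trend. The replicate numbers do not pair the samples by any label, and deviations of same-numbered arrays correlated at -0.081, so the replicate block, with 8 calls over all genes and 0 among members, is given here alone. With any array left out, the counts were 0 for all genes, members and pathway genes, while 1036 to 2850 genes had an unadjusted p under 0.05. The lone array of a group was then assumed to vary like the other group.

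Small differences turned sign, and the cause was not tested. Leaving out an array gave a range from -0.10 to 0.0076 for Arnt, -0.11 to 0.076 for Hsp90aa1, -0.097 to 0.021 for Ncoa1, -0.038 to 0.065 for Ncoa2, -0.26 to 0.052 for Aldh3a1, -0.25 to 0.022 for Nfe2l2, -0.19 to 0.0028 for Afmid and -0.042 to 0.10 for Kynu. Hsp90aa1 was 0.0046 with median centring, Ncoa2 -0.049 with centring on the genes tested, Kynu -0.048 with the second quantile normalization and -0.032 with centring on the genes tested, and Ereg 0.12 with the mean of probe sets. The sign of Ahr, Ahrr, Tiparp, Cyp1a1 and Cyp1b1 was the same in the settings run. For Cyp1a1, below the filter, settings that start from the filtered genes were not run apart from scaling and left-out arrays.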
